A study of Homo sapiens with 6 samples.

Results

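The genes described here are 10 genes of the circadian clock, chosen by symbol from the 22989 genes of a table of RNA-seq read counts: Bhlhe40, Bhlhe41, Per1, Per2, Per3, Cry1, Cry2, Arntl, Clock and Nr1d1. All 10 had a row in the table and all 10 passed the filter on low counts. The 6 libraries are labelled PTX-resistant BCSC of MDA-MB-231, a human triple-negative breast cancer line. The table does not show that species: its symbols are spelled as mouse genes are, with 1129 ending in Rik and 4648 made of Gm and a number, and 473 and 915 of these passed the filter on low counts. The reads were thus counted under genes named as in mouse, and no value below can be taken as expression in MDA-MB-231. Which cells the libraries came from was not settled here, and the cell type named here rests on the labels alone. BCSC are the breast cancer stem-like cells that were sorted for high aldehyde dehydrogenase activity from cells made resistant to paclitaxel (PTX). Of these libraries, 3 are labelled LINC00115 KD, from cells that carry a short hairpin RNA (shRNA) against the long non-coding RNA LINC00115, and 3 are labelled WT. The paper's other experiments use a control shRNA, shC, while the labels call these controls WT, so an effect of the hairpin or its vector and an effect of losing LINC00115 cannot be told apart. The KD samples are described as sh115-1, sh115-2 and sh115-3 and titled as replicates. The paper names a single hairpin for its RNA-seq, the one it numbers second, so the numbers in the descriptions are read as replicates and an effect of that hairpin alone cannot be told apart from the knockdown. The labels do not say whether the replicates were separate cultures, so p-values here measure only the spread between these samples. They also give no time of harvest and no synchronization of the cells, so each library is a snapshot of the clock at an unstated phase.

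The mammalian clock is a feedback loop of transcription. CLOCK and BMAL1 (the protein of Arntl) bind E-boxes as a pair and activate, among others, the Per, Cry and Nr1d1 genes. The PER and CRY proteins then inhibit that pair, while NR1D1 (REV-ERBα) represses Arntl, and the ROR receptors oppose NR1D1 at the same sites. BHLHE40 and BHLHE41 (DEC1 and DEC2) are repressors that also bind E-boxes and so restrain CLOCK and BMAL1. Both are well known to be induced by hypoxia through HIF1, the factor at the centre of the study, which is why they are read here beside the clock.

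Matches to the letters of clock and hypoxia elements were marked in human promoter sequence. The 250 bases upstream of the transcription start are given for 4 of the same-named human genes, from RefSeq (GRCh38.p14). The symbols of all 10 genes matched a RefSeq promoter window, Arntl through its current name BMAL1. BHLHE40 and BHLHE41 are shown because both genes fell, PER1 because it holds the same E-box and its counts rose, and PER3 because it moved against PER1 and PER2. Each is printed 5′ to 3′ on the strand of the gene. Capitals mark the E-box CACGTG, the D-box TTATGTAA, the core AGGTCA of a ROR element and the cores ACGTG and GCGTG of a hypoxia response element, on either strand.

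BHLHE40, chr3:4979187-4979436, plus strand: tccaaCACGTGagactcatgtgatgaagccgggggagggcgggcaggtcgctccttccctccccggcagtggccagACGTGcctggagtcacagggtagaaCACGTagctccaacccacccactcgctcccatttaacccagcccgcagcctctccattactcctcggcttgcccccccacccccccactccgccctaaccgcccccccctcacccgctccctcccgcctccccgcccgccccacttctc
BHLHE41, chr12:26125038-26125287, minus strand: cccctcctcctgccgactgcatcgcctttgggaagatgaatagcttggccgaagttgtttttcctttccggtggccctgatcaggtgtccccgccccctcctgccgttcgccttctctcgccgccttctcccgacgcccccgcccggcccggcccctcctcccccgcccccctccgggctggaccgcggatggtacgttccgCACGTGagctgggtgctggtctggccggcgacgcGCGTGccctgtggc
PER1, chr17:8152405-8152654, minus strand: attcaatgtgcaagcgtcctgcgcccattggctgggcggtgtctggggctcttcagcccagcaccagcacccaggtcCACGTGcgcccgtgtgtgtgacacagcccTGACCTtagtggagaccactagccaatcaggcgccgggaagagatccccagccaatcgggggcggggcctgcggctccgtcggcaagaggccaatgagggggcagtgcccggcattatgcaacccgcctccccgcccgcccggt
PER3, chr1:7784041-7784290, plus strand: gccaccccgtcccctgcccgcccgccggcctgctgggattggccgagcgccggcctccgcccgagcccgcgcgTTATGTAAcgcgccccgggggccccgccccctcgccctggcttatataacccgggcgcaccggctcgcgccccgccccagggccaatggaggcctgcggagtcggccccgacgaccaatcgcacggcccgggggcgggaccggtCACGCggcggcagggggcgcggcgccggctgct

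Over the 300-base windows, which run 50 bases past the start, the E-box was found in 3 of the 10 genes, those of Bhlhe40 (245 bases upstream of the start), Bhlhe41 (48 bases) and Per1 (173 bases), and in 7.26% of all 35116 windows. The D-box was found in 1 of 10, Per3, against 0.886% of all windows. The ROR core was found in 3 of 10 (Per1, Cry2 and Arntl), against 13.8%. The core ACGTG, which the E-box contains, was found in 7 of 10 against 21.4%, and GCGTG in 5 of 10 against 36.5%. These 10 windows held 46.3% to 80.7% G and C, and the shares over all windows were not taken at like base composition. Whether any motif is enriched beyond base composition was therefore not tested. A match describes the letters only and is no evidence of binding. Genes with an E-box in this window are found among those that fell and among those that rose. Given the mouse-style symbols, and since the annotation counted is not given in the sources used here, these human windows need not be the promoters of the genes counted.

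The libraries held between 36979221 and 38799331 counts. LINC00115 itself was not analysed here, and the direction of every change therefore rests on the labels. The markers of the labelled cells were uneven. Of 11 breast markers, 7 lay higher in every KD than in every WT library and 0 lower, with summed levels of 5550 to 5690 against 4920 to 4980 CPM (each library's counts scaled to a common total). Among all genes tested, 75.6% had no overlap between groups in either direction, so such counts of markers alone set no list apart. Vim, Cd44, Krt8 and Krt18 were abundant in every library, and Krt8 and Krt18 were 1.59-fold and 1.83-fold higher in the KD libraries. Erbb2 and Esr1, receptors that define other classes of breast cancer, were 1.62-fold and 3.66-fold higher, Esr1 on 24 to 29 counts in the WT and 82 to 105 in the KD libraries. Cdh1, an epithelial cadherin, had 1 to 3 counts in the WT and 22 to 31 in the KD libraries, and Pgr had 0 to 3 counts in any library. Of the aldehyde dehydrogenase genes, Aldh1a3 had 0 to 4 counts in any library and Aldh1a1 had 8 to 17 counts in the WT and 39 to 52 in the KD libraries. Epcam had 0 to 5 counts. Of the tissue markers, 8 of 8 lung and 6 of 8 kidney markers lay higher in every KD than in every WT library, beside that 75.6%. Their summed levels were 66.9 to 77.6 against 0.132 to 0.186 CPM for lung and 20.4 to 23.7 against 0.953 to 1.19 for kidney. In the WT libraries, 6 lung and 6 kidney markers were at 0, Scgb1a1, Sftpc and Kap among them. Of 8 leukocyte markers 3 lay higher in every KD library, with sums of 97.1 to 107 against 33.7 to 35 CPM, mostly S100a8, and Cd3e was at 0 in every library. The part of these cells in the changes of the clock genes was not tested. In bulk RNA, fewer cells of a type and less RNA per cell cannot be told apart.

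To determine how the clock genes differed between the groups, counts were compared with edgeR's quasi-likelihood test over all 13497 genes that passed the filter, and a gene was called where the adjusted p-value was under 0.05 and the fold change was also over 2. Of the 10 clock genes, 3 were called lower in the KD libraries (Bhlhe40, Bhlhe41 and Per3), where 9.98% of all genes tested were, and 0 were called higher, against 10.2% of all genes. The count of 0 was the same by DESeq2 and at unadjusted p-values. Without the fold threshold, 5 of 10 were lower and 5 were higher, against 36.7% and 36.7% of all genes. All 10 genes had no overlap between groups, as did 75.6% of all genes tested, so neither that nor an adjusted p-value alone sets a gene of this table apart. The median log2 fold change of the 10 genes was 0.06, beside -0.01 for all genes, and the median of their absolute changes was 0.69 beside 0.45. The genes thus moved in both directions, as the plot of levels by library shows.

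Bhlhe40 and Bhlhe41, the repressors that answer to hypoxia, fell side by side. Bhlhe40 stood at 171, 161 and 154 normalized CPM in the WT libraries and at 68.5, 61.9 and 61.4 in the KD libraries. CPM here are counts scaled to TMM-adjusted library totals and not to gene length, so they are compared between libraries and not between genes. Every KD library lay far below every WT library. The mean was 162 ± 8.55 in the WT and 64.0 ± 3.96 in the KD libraries (SD, n = 3 each). Bhlhe40 fell by 1.34 on the log2 scale (standard error 0.05, adjusted p = 3.48e-23), or 2.54-fold. Bhlhe41 stood at 74.5, 72.9 and 69.1 normalized CPM in the WT and at 32.5, 29.9 and 30.2 in the KD libraries. It fell by 1.23 on the log2 scale (standard error 0.06, adjusted p = 8.93e-20), or 2.34-fold. The spread within each group was 3.87% to 6.19% of the mean for both genes. The log2 ratio of Bhlhe40 to Bhlhe41 counts, in which library scaling cancels, was 1.17 ± 0.03 in the WT and 1.05 ± 0.03 in the KD libraries (SD, n = 3 each, exact permutation p = 0.1, two-sided). That p is the smallest that 3 libraries against 3 allow. The difference of -0.12 (standard error 0.02) was small beside the fall of either gene.

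Of 12 other genes that HIF1 is known to induce, 9 were called lower and 0 higher, against the same 9.98% and 10.2% of all genes, and 11 were lower and 0 higher at any fold. Their median log2 fold change was -1.60, with a range of -2.70 to -0.06. That range holds Bhlhe40 and Bhlhe41, but also each of the other clock genes that fell (Per3, Cry2 and Arntl), so lying within it is not particular to both Bhlhe genes. Ankrd37 (-2.70), Car9, a carbonic anhydrase (-2.55), Bnip3, a mitophagy receptor (-2.12), Pdk1, which limits entry of pyruvate into the mitochondrion (-1.92), Adm, adrenomedullin (-1.77) and Vegfa (-1.74) had the largest changes. Pfkfb3 stood at 133 ± 5.25 and 127 ± 4.84 normalized CPM (SD, n = 3 each, adjusted p = 0.179). This list was chosen with earlier results of these data known and is a description of the company in which both Bhlhe genes moved. The transcript of Hif1a itself lay higher in the KD libraries, at 334 ± 1.68 against 254 ± 5.94 normalized CPM, and rose by 0.40 on the log2 scale (standard error 0.03, adjusted p = 1.11e-12).

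The activating pair of the loop moved apart. Clock stood at 83.2, 84.2 and 82.1 normalized CPM in the WT and at 137, 141 and 136 in the KD libraries. Its spread among the WT libraries, 1.24% of the mean, was the smallest of the 10 genes. Clock rose 1.66-fold (log2 fold change 0.73, standard error 0.04, adjusted p = 3.01e-17). Arntl, its partner, stood at 35.2, 33.7 and 30.6 in the WT and at 25.3, 30.4 and 29.1 in the KD libraries. The groups only just failed to overlap. Arntl fell by 0.23 on the log2 scale (standard error 0.07, adjusted p = 0.00588), the smallest change of the 10 genes, and without KD replicate 1, its lowest library, the change was -0.15 (adjusted p = 0.0936). The log2 ratio of Arntl to Clock counts went from -1.33 ± 0.09 to -2.29 ± 0.13 (SD, n = 3 each, exact permutation p = 0.1, the smallest possible), a difference of -0.96 with a standard error of 0.09. Arntl2, a paralog that can take the place of Arntl, fell by 0.42 on the log2 scale (standard error 0.12, adjusted p = 0.00188). The log2 ratio of Arntl to Arntl2 overlapped between groups, at 1.54 ± 0.13 and 1.72 ± 0.08 (SD, n = 3 each, exact permutation p = 0.2). Npas2, the paralog of Clock, had 0 to 4 counts in any library, too few for a fold change. The log2 ratio of Clock to Npas2 overlapped between groups (exact permutation p = 0.7). It rests on these few counts and is not read further.

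The Period genes, which encode the inhibitors that time the loop, split. Per1 stood at 57.3, 52.0 and 50.3 normalized CPM in the WT and at 78.7, 77.7 and 79.6 in the KD libraries, and Per2 at 21.0, 19.2 and 18.0 and at 35.5, 36.6 and 35. Both were higher in every KD library. Per1 rose 1.48-fold (log2 fold change 0.56, standard error 0.05, adjusted p = 1.03e-11), and Per2 rose 1.84-fold (0.88, standard error 0.07, adjusted p = 7.01e-13). Per3, the member of the family that the loop needs least, stood at 28.1, 23.8 and 25.6 in the WT and at 8.51, 11 and 9.64 in the KD libraries. It fell 2.66-fold (log2 fold change -1.41, standard error 0.10, adjusted p = 4.10e-15), the largest change of the 10 genes and the opposite direction to its paralogs. Within the libraries, the log2 ratio of Per2 to Per3 counts went from -0.41 ± 0.10 to 1.88 ± 0.16 (SD, n = 3 each), a difference of 2.30 with a standard error of 0.11, and that of Per1 to Per3 from 1.04 ± 0.08 to 3.03 ± 0.19, a difference of 1.98. Per1 and Per2 also moved by unequal amounts, their ratio going from 1.46 ± 0.02 to 1.14 ± 0.05, a difference of -0.31 with a standard error of 0.03. Each of these 3 ratios had no overlap between groups (exact permutation p = 0.1, the smallest possible).

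The cryptochromes, the partners of the PER proteins and the stronger inhibitors of CLOCK and BMAL1, split as well. Cry1 stood at 18.0, 16.5 and 14.8 normalized CPM in the WT and at 22.6, 19.9 and 20.1 in the KD libraries. It rose 1.27-fold (log2 fold change 0.35, standard error 0.09, adjusted p = 0.000791). Cry2 stood at 48.3, 43.6 and 39.5 in the WT and at 26.4, 27.1 and 29.9 in the KD libraries, and fell 1.57-fold (log2 fold change -0.66, standard error 0.07, adjusted p = 4.65e-10). The log2 ratio of Cry1 to Cry2 counts was nearly the same in the 3 WT libraries, -1.41 ± 0.01, and was -0.41 ± 0.17 in the KD libraries (SD, n = 3 each, exact permutation p = 0.1, the smallest possible). The shift of 1.00 (standard error 0.10) was larger than the spread within either group.

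**Figure D1:**
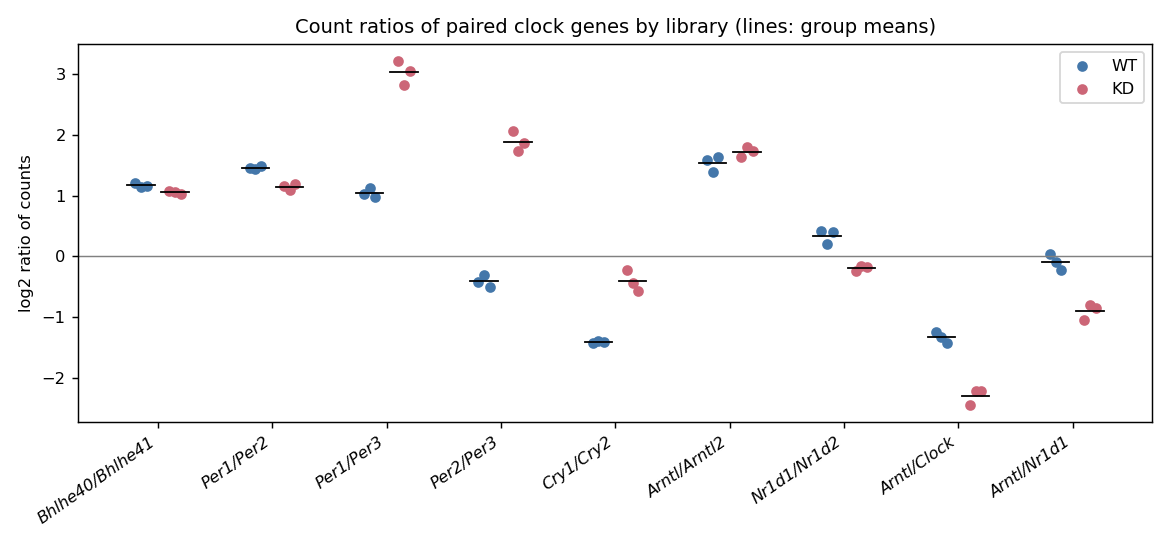
Log2 ratio of the counts of 2 genes in the same library (vertical axis) for 9 pairs of clock genes, in WT (blue) and KD (red) libraries, with group means as lines. Per1/Per3 and Per2/Per3 shift most, by 1.98 and 2.30, Bhlhe40/Bhlhe41 shifts by -0.12, and Arntl/Arntl2 is the pair whose groups overlap. Ratios are of counts not scaled to gene length, so their height says nothing of which gene is the more abundant.

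Across the 10 ratios compared, Clock to Npas2 among them, 8 had no overlap between groups. Each of these 8 had an exact permutation p of 0.1 and an adjusted p of 0.125 (Benjamini-Hochberg). No ratio could thus pass a threshold of 0.05 in a design of this size. Of all single genes tested, 75.6% had no overlap, and ratios of other gene pairs were not compared. The count of 8 therefore does not set these pairs apart.

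The repressing nuclear receptors of the second loop rose together. Nr1d1, the repressor of Arntl, stood at 34.6, 35.8 and 35.5 normalized CPM in the WT and at 52.0, 53.0 and 52.6 in the KD libraries. The spread within groups was 1.85% and 0.932% of the mean. Nr1d1 rose 1.49-fold (log2 fold change 0.57, standard error 0.06, adjusted p = 6.49e-11). Nr1d2, its paralog, was called higher, at 28 ± 2.80 normalized CPM in the WT and 60.1 ± 1.09 in the KD libraries (SD, n = 3 each). It rose by 1.10 on the log2 scale (standard error 0.06, adjusted p = 4.83e-17). The log2 ratio of Nr1d1 to Nr1d2 counts went from 0.34 ± 0.12 to -0.19 ± 0.04 (SD, n = 3 each, exact permutation p = 0.1). Rora had 0 to 7 counts in any library. Against Arntl, the gene that these receptors act on, the log2 ratio of Arntl to Nr1d1 counts fell from -0.09 ± 0.12 to -0.90 ± 0.13 (SD, n = 3 each, exact permutation p = 0.1).

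Beyond the 10 genes, 27 further genes of the clock were listed, of which 23 were tested. Of these, 2 were called lower and 1 higher, and 11 were lower and 9 higher at any fold. The median of their log2 fold changes was 0.01. Of all genes tested, 9.98% were called lower and 10.2% higher, and 36.7% were lower and 36.7% higher at any fold, so the genes called among these 23 were no more frequent than elsewhere in the table. Besides Nr1d2, the genes called were Ciart and Fbxl21. Ciart (CHRONO), another repressor of CLOCK and BMAL1, had 1445, 1265 and 1385 counts in the WT and 394, 373 and 415 in the KD libraries. It fell 3.47-fold (log2 fold change -1.79, standard error 0.08, adjusted p = 4.84e-20), further than any of the 10 genes. Fbxl21, an F-box protein that binds cryptochromes, had 188, 135 and 149 counts in the WT and 72, 54 and 51 in the KD libraries, and fell 2.67-fold (log2 fold change -1.42, standard error 0.24, adjusted p = 3.11e-06).

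The repressors of the CLOCK and BMAL1 pair thus did not move as a block. Cipc, an inhibitor that binds CLOCK, rose by 0.90 on the log2 scale (standard error 0.09, adjusted p = 3.02e-11), while Ciart, Bhlhe40 and Bhlhe41 fell. The kinases and ligases that act on the PER proteins changed little or unequally. Csnk1e, a kinase of the PER proteins, stood at 237 ± 7.30 and 238 ± 8.83 normalized CPM (SD, n = 3 each, adjusted p = 0.833). Csnk1d rose by 0.16 on the log2 scale (adjusted p = 0.000135). Of the paired ligase subunits that recognise phosphorylated PER, Btrc fell by 0.94 on the log2 scale (standard error 0.09, adjusted p = 2.85e-11) and Fbxw11 rose by 0.13 (adjusted p = 0.000904).

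**Figure D2:**
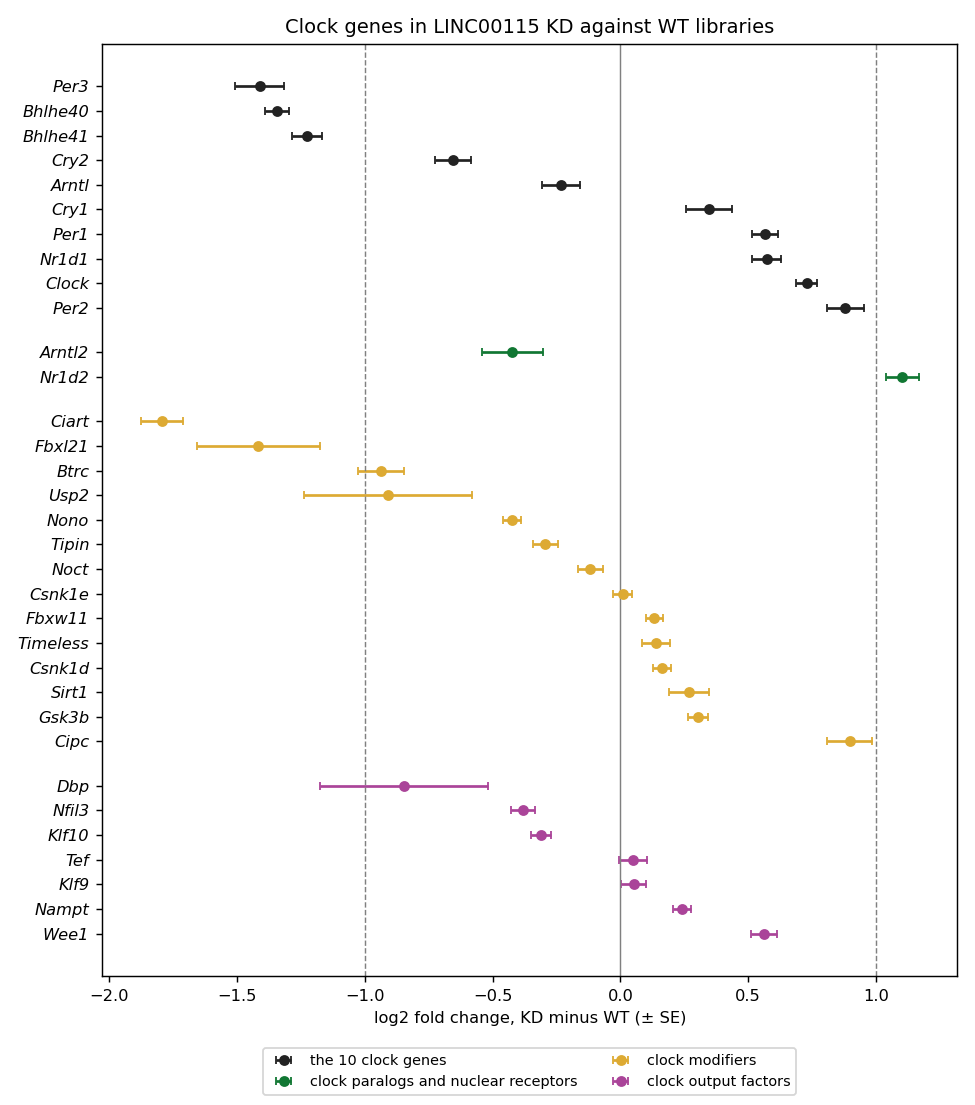
Log2 fold change, KD minus WT, with its standard error (horizontal axis) for the 10 clock genes and 23 further clock genes tested, grouped by role and ordered by size within each group. Dashed lines mark a fold change of 2. Per3, Bhlhe40, Bhlhe41, Ciart and Fbxl21 lie left of the lower line and Nr1d2 (1.10) right of the upper one, and each group holds genes on both sides of 0.

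Of 8 listed genes that carry the output of the clock, 7 were tested. At any fold, 3 were lower and 2 higher, against 36.7% of all genes in each direction. By edgeR 0 of 7 were called, and none had a fold change over 2 at any p-value, but with 9.98% and 10.2% of all genes called, a count of 0 among so few genes does not set them apart. Their median log2 fold change was 0.05. Dbp, an activator at D-boxes and a direct target of CLOCK and BMAL1, had the largest change, -0.85 (standard error 0.33, adjusted p = 0.0204), on 99, 62 and 79 counts in the WT and 35, 57 and 41 in the KD libraries. Nfil3, the repressor at the same D-boxes, fell by 0.38 on the log2 scale (adjusted p = 7.85e-09). Tef stood at 79.0 ± 4.48 and 81.7 ± 7.94 normalized CPM (SD, n = 3 each, adjusted p = 0.434), and Hlf had 0 to 5 counts in any library. Wee1, a cell cycle kinase under clock control, rose by 0.56 on the log2 scale (adjusted p = 3.20e-12), and Nampt, which makes the precursor of NAD, by 0.24 (adjusted p = 3.57e-07).

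CLOCK and BMAL1 belong to the bHLH-PAS factors, and BHLHE40 and BHLHE41 to the bHLH-Orange factors, so the relatives of both were read beside them. Of 12 other bHLH-PAS genes, 8 were tested, with 1 called lower and 3 higher, against 9.98% and 10.2% of all genes. Ahr, the receptor of aryl hydrocarbons, rose by 1.36 on the log2 scale (standard error 0.06, adjusted p = 8.97e-20), and Sim2 by 1.16 (standard error 0.13, adjusted p = 1.82e-09). Epas1, which encodes HIF2α, had 0, 0 and 3 counts in the WT and 85, 57 and 74 in the KD libraries (adjusted p = 7.84e-10). Npas4 was called lower (adjusted p = 0.0228), but on 29, 21 and 11 counts against 3, 14 and 2, which overlap. Of 10 bHLH-Orange relatives, the Hes and Hey genes with Helt, 8 had a row in the table and 3 of these had enough counts to be tested. Several of the family, Hes1 and Hey1 among them, are induced by Notch. All 3 tested genes fell, where 36.7% of all genes did at any fold, with log2 fold changes of -0.65 for Hes1, -0.68 for Hes6 and -2.33 for Hey1. Of these 3, Hey1 was called lower, on 29, 53 and 55 counts in the WT and 10, 7 and 10 in the KD libraries (standard error 0.50, adjusted p = 9.39e-05).

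Among the WT libraries, 8 of the 10 genes were highest in WT replicate 1 and 8 were lowest in WT replicate 3. How often genes of the whole table took this order was not counted, so it is not read as a trait of these genes. Their spread in the WT libraries lay between 1.24% and 10% of the mean. In the KD libraries no library was highest for more than 5 genes, and the spread lay between 0.932% and 12.7%. The lowest count behind any value of the 10 genes was 329, so that counting error was small beside the changes. Tested against a fold change of 1.5 in place of no change, the changes of Bhlhe40, Bhlhe41, Per3, Per2 (adjusted p = 0.000163) and Clock (adjusted p = 0.000806) passed, and those of Per1, Cry1, Cry2, Arntl and Nr1d1 did not.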

How the data were processed

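Per the labels and the paper's methods, the authors trimmed adapters, mapped reads with HISAT2 and deposited 1 table of read counts per gene, without normalization. The methods name hg19, while the submitters' processing notes name hg38, featureCounts and DESeq2 without a role. Which annotation was used, and whether strand was, is not given in the sources used here, so reads of overlapping or antisense genes cannot be told apart. Columns were assigned to samples by the descriptions in the labels, with 0 value columns unused and 0 blank gene names.

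Counts were analysed in R 4.3.3 with edgeR 4.0.16: filterByExpr (minimum count 10, total 15), library totals over all genes, TMM, the quasi-likelihood test of KD against WT with group only, and Benjamini-Hochberg adjustment over all genes kept. Calls used the study's thresholds. Standard errors are the log2 fold change divided by the root of F. Ratios added 0.5 counts to each gene and were compared by the exact permutation test, two-sided. The limit that a count of 0 allows is 3 counts, and it covers counting error only. On simulated counts of this comparison (13484 genes fitted), 200 of 200 changed genes were recovered, with 1 unchanged gene called. Every planted change was larger on the log2 scale than the largest of the 10 clock genes (1.41). The planted genes were not low in counts, and all genes shared the same dispersion. The recovery therefore checks the running of the fit and does not measure its power for changes of the size seen here. Named were the 10 genes, both genes of each pair, and the called genes of each list (at most 6) or else the one with the largest change. Genes named beyond this were picked with their values in view. Other genes of these lists are not reported here. The members and lists were chosen with earlier results of these data known. Promoter sequences are from RefSeq. Alternatives were 3 other scalings, 2 other filters, DESeq2 1.42.0, a likelihood ratio test, each replicate left out, the replicate number as a block, unadjusted p-values, a pseudocount of 1 count and a test against a 1.5-fold change.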

Additional observations from a re-analysis of the deposited data

How the results depend on the processing

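Each of the 10 clock genes kept its direction in 14 of 14 alternative fits, and 9 of them kept an adjusted p under 0.05 in all. The exception was Arntl, at -0.15 on the log2 scale (adjusted p = 0.0936, edgeR) without KD replicate 1, which brought the genes lower at any fold from 5 to 4. The 3 genes called lower were 3 in every alternative run. Genes called higher were 0 except against a fold change of 1.5, a lower bar than the fold of 2, where they were 2, Per2 and Clock. With a replicate left out, Bhlhe40 lay between -1.39 and -1.30, Bhlhe41 between -1.26 and -1.19 and Per3 between -1.50 and -1.32 on the log2 scale. Over 3 other scalings the median of all genes moved between -0.047 and 0.001. Of all genes, 1347 were called lower and 1381 higher. With at least 10 counts in every library, which leaves out genes with few counts in either group, these were 919 and 903. Between same-numbered libraries, deviations from the group means had correlations of 0.014, -0.019 and -0.020, so the numbers gave no sign of pairing. Whether the samples were prepared in pairs cannot be told from these values. With the replicate block, 3 of the 10 genes were called lower, and 1316 of all genes lower and 1360 higher.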
